A study of Mus musculus with 2 samples.

Results

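The genes examined were 10 targets of NRF2 that act in oxidative stress, heme breakdown and iron storage, Hmox1, Ptgr1, Prdx1, Gclm, Gclc, Srxn1, Txnrd1, Slc7a11, Nqo1 and Fth1, out of 32285 genes in the deposited counts. They were selected by symbol after earlier results of these counts had shown some of them beside Arg1 in macrophage nuclei. Their levels across populations, beside Arg1 and beside each other are therefore a description and were not tested. The data were 2 single-nucleus RNAseq (snRNAseq) libraries from C57BL6 mice, both made of sorted nuclei from scraped periosteum plus the hematoma and callus. One was collected at day 1 post-fracture, after the exposed tibia had been cut through at mid-shaft and left unstabilized. The other was collected at day 5 post-MTI (musculoskeletal traumatic injury), where the muscles around the tibia were crushed as well. Each library held nuclei pooled from 3 or 4 adult mice, males and females mixed, so single mice cannot be told apart, and the nuclei of 1 library are not replicates of a condition. No value was compared between the libraries, because the time and the kind of injury cannot be told apart.

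NRF2, encoded by Nfe2l2, is a transcription factor that is held in the cytoplasm and degraded through KEAP1 and accumulates when electrophiles or oxidants modify KEAP1. It then binds antioxidant response elements (AREs) with small MAF proteins and drives genes for glutathione synthesis, thioredoxin recycling and heme breakdown, while BACH1 represses several of the same genes until heme releases it. In a hematoma, macrophages take up red cell debris, and heme is a known inducer of Hmox1. Arg1, arginase 1, is widely used as a marker of one state of activated macrophages.

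The members lie on 7 chromosomes of the mm10 build. Hmox1 (chr8:75093621-75100589) encodes heme oxygenase 1, which opens the heme ring, and Fth1 (chr19:9980598-9985098) encodes the ferritin heavy chain, which stores the released iron. Slc7a11 (chr3:49892526-50443614) encodes the cystine importer, and Gclc (chr9:77754535-77794485) and Gclm (chr3:122245557-122270732) encode both subunits of glutamate-cysteine ligase, which starts glutathione synthesis. Txnrd1 (chr10:82833951-82897712) encodes thioredoxin reductase, Prdx1 (chr4:116685544-116700822) a peroxiredoxin and Srxn1 (chr2:152105516-152111376) the sulfiredoxin that restores it. Nqo1 (chr8:107388225-107403206) encodes a quinone reductase and Ptgr1 (chr4:58965439-58987119) a reductase of reactive lipid aldehydes and prostaglandins. Introns were counted, and gene spans ran from 4.50 kb for Fth1 to 551 kb for Slc7a11, so single members were not ranked against each other by level. Sums over the members or over marker lists can weigh long genes more, and this was not corrected. Reads of Gclm, Txnrd1 and Slc7a11 can be shared with other annotated genes that overlap them, and Fth1 has near-identical copies elsewhere in the genome, so its counts are uncertain.

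RefSeq promoter sequences (GRCm38.p6, the same build) were matched for 8 of the 10 members, all but Hmox1 and Gclc. The ARE core TGACNNNGC was searched on both strands of the 250 bases before each start. It was present for 3 of the 8 members, Gclm, Prdx1 and Txnrd1, against 11.5% of 27025 genes with such a sequence. The other matched members had none in these bases, but sequence further out was not searched, so an element there would be missed. The 3 matches are shown because they are the part of these promoters that the NRF2 name of the gene group refers to. The capitals mark the ARE core, which lies on the strand opposite to the gene in all 3.
Gclm: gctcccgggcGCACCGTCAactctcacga
Prdx1: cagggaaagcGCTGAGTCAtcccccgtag
Txnrd1: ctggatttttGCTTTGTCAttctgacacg
The windows lie at chr3:122245413-122245441 (Gclm), chr4:116685456-116685484 (Prdx1) and chr10:82859104-82859132 (the second of 3 annotated starts of Txnrd1), all on the plus strand. The core of Prdx1 overlaps a match to the AP-1 motif TGANTCA, and the cores of Gclm and Txnrd1 do not. A match is a run of letters and does not show that NRF2 bound there in these nuclei.

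The MTI library held 5899407 UMIs (unique molecular identifiers, which count captured RNA molecules) in 1446 barcodes, and the filters of the methods kept 1127 nuclei with a median of 2364 UMIs. The day 1 library held 9389014 UMIs in 48987 barcodes, of which 43464 had fewer than 200 genes, and 2405 nuclei were kept, at a median depth of 409 UMIs. Both libraries shared 33 barcode sequences, of which 15 were kept as nuclei in both and 3 of the 33 were macrophage-like nuclei after MTI. Leaving the shared barcodes out, a setting chosen after the values had been seen, gave the ratios 1.72 (1.56 to 1.89) and 0.864 (0.794 to 0.94) in place of the 1.72 and 0.862 reported below. Nuclei were clustered without the members, the pathway lists below and Arg1, and a cluster carries an X-like name where its marker genes gave one. Levels are UMIs of a gene per 1000000 UMIs of the population (CPM). Values in parentheses are 95% intervals, exact Poisson for levels, exact conditional binomial for ratios and exact Clopper-Pearson for shares, and they cover counting error only.

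In the MTI library the members were highest in 1 macrophage-like cluster of 90 nuclei. Its 5 leading genes were Ptgr1, Tnf, Hmox1, Cd36 and 4930440I19Rik, so that 2 of the members led it although neither had been used to form it. All 8 macrophage markers were detected in it, at 2718 CPM together, while the markers of the other non-immune and immune cell types lay between 0 CPM (osteoblast) and 219 CPM (myogenic), with neutrophil markers at 187 CPM and monocyte markers at 83.3 CPM. The macrophage markers alone do not set it apart, since they stood at 2750 CPM in the unnamed Mmp12-led cluster, 2648 CPM in monocyte-like and 2515 CPM in erythroid-like nuclei, and at 5532 CPM in the macrophage-like cluster led by Ccl8. The macrophage name of the Ptgr1-led cluster depended on the setting. Of its 90 nuclei, 52 were macrophage-like by each nucleus's own marker score and 54 at doubled resolutions. The number was 26 with at least 500 genes per nucleus and 5 under a mitochondrial limit of 0.5%, settings that also remove nuclei. It was 7 with the members, pathway lists and Arg1 kept in the clustering. The 10 members summed to 3277 CPM in the Ptgr1-led cluster (3099 to 3463). The sum was 979 CPM (866 to 1103) in the macrophage-like cluster led by Ccl8 and Cd163 (69 nuclei) and 712 CPM (623 to 810) in that led by Dnase1l3 (74 nuclei). The 3 clusters together made up 233 macrophage-like nuclei with 1786 CPM (1704 to 1872). Outside them the sum was 1955 CPM (1627 to 2329) in an unnamed cluster of 69 shallow nuclei led by Hspa1a and Rgs2. Though unnamed, that cluster held 7 of the 8 macrophage markers, also at 1955 CPM together. The sum was 1800 CPM in neutrophil-like, 1335 CPM in an unnamed immune cluster led by Mmp12 and Gpnmb and 1053 CPM in monocyte-like nuclei. It was 973 CPM (840 to 1121) in the myogenic cluster led by Chodl and Pax7, where Slc7a11 alone gave 140 of the 191 member UMIs. In neutrophil-like nuclei Slc7a11 gave 104 of 129. The Ccl8-led macrophages had a sum close to that of this myogenic cluster, but with 4 of 272 UMIs from Slc7a11. The sum was 639 CPM in an unnamed cluster of 179 shallow nuclei, 614 CPM in erythroid-like, 542 CPM in the other myogenic and 479 CPM in osteoclast-like nuclei. The lowest sums were 319 CPM in the skeletal cluster led by Matn3, 293 CPM in that led by Pgr, 238 CPM in endothelial-like nuclei and 218 CPM in a cluster of mixed lymphoid markers.

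**Figure D1:**
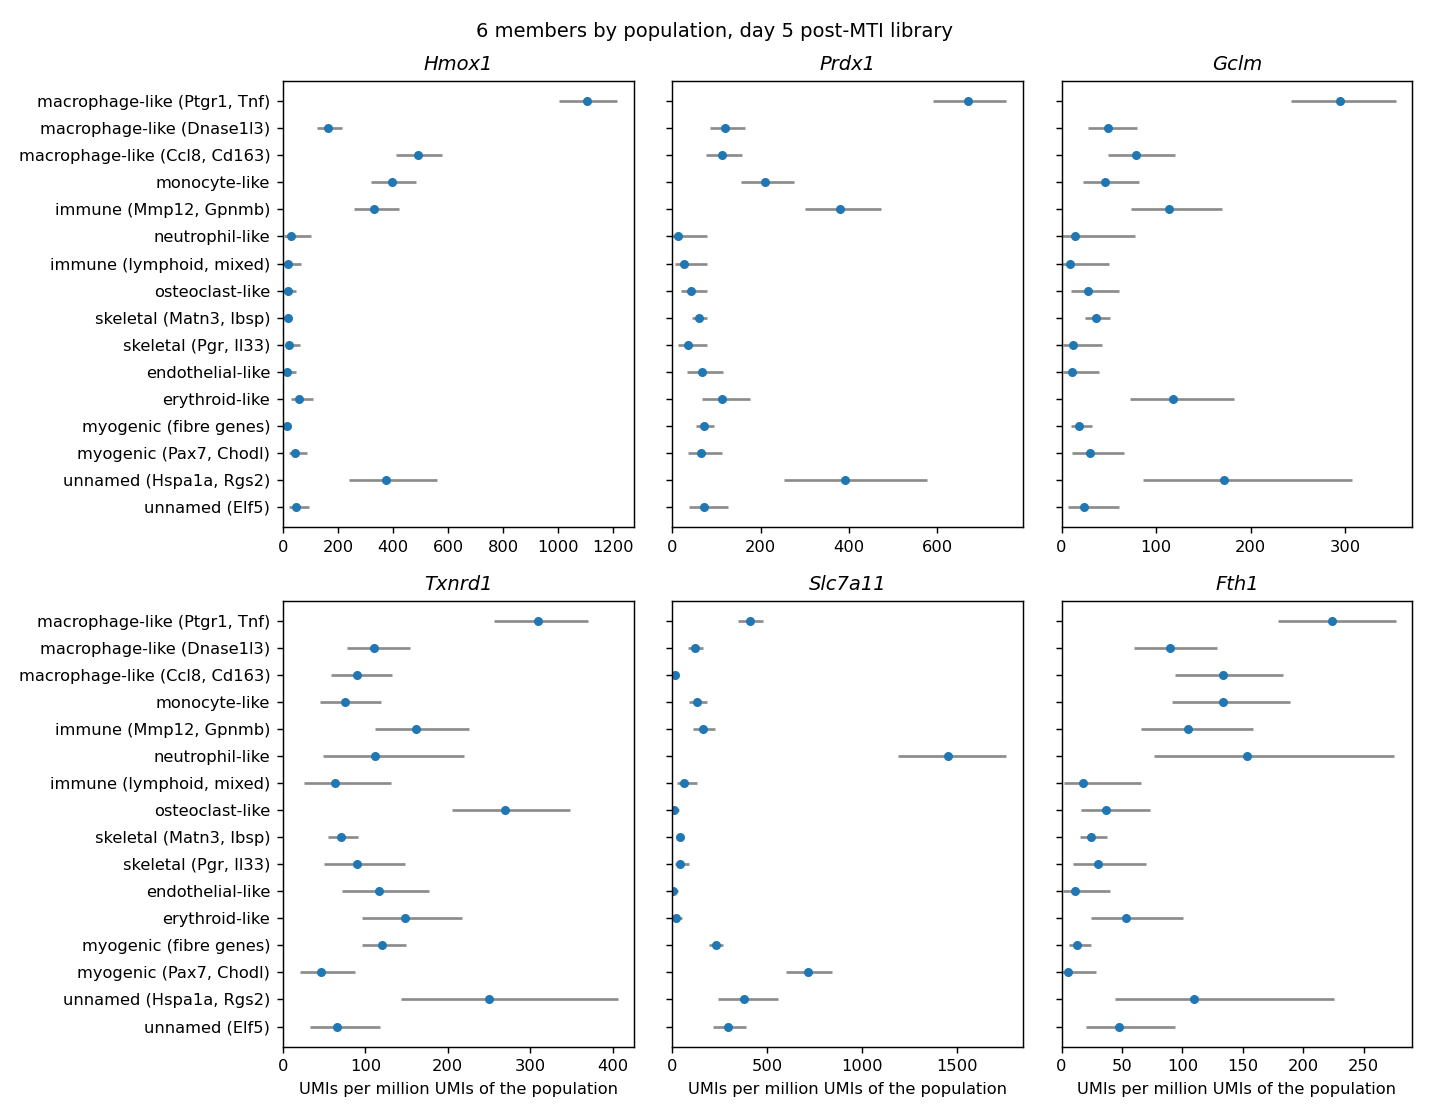
Levels of 6 members in 16 populations of the day 5 post-MTI library, in CPM (points) with exact 95% Poisson intervals (bars). Hmox1, Prdx1, Gclm, Txnrd1 and Fth1 were highest in the macrophage-like cluster led by Ptgr1 and Tnf, and Slc7a11 was highest in neutrophil-like nuclei.

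Hmox1, the heme-degrading member, had 613 of its 871 UMIs in macrophage-like nuclei (70.4%). Its level was 1104 CPM (1001 to 1214) in the cluster led by Ptgr1, 490 CPM (411 to 579) in that led by Ccl8 and Cd163, 397 CPM (321 to 485) in monocyte-like and 333 CPM (259 to 420) in the Mmp12-led nuclei. The intervals of the last 3 overlap, so their order is not resolved. In the unnamed Hspa1a-led cluster it was 375 CPM (240 to 559) from 24 UMIs. In the remaining immune populations and in skeletal, endothelial-like and myogenic nuclei it lay between 15.8 and 45.8 CPM, except for 163 CPM in the Dnase1l3-led macrophage-like cluster. Cd163, the receptor for hemoglobin bound to haptoglobin, was at 151 CPM in the cluster named after it and at 10.4 CPM in the Ptgr1-led cluster. After thinning each nucleus to 1000 UMIs, 40.4% (30.2 to 51.4%) of the Ptgr1-led nuclei and 24.6% (15.1 to 36.5%) of the Ccl8-led nuclei had a Hmox1 UMI. The share was 1.96% (0.238 to 6.90%) in the skeletal cluster led by Matn3, where the gene was near background, with a median depth of 7710 against 3949 UMIs in the Ptgr1-led cluster. Without thinning these shares were 56.7%, 42.03% and 8.82%.

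The glutathione members did not share 1 order. Gclm was highest in the Ptgr1-led cluster, with 294 CPM (242 to 354), followed by the unnamed Hspa1a-led cluster with 172 CPM (85.9 to 308) and erythroid-like nuclei with 118 CPM (72.1 to 182). The intervals of the first 2 overlap. The erythroid-like nuclei, named from globin and other red cell genes at 809 CPM, held more macrophage than erythroid marker RNA, and the part of it in these values was not tested. Gclc was at 146 CPM (110 to 189) in the Ptgr1-led cluster, 125 CPM (54.0 to 247) in the Hspa1a-led cluster and 94.4 CPM (54.0 to 153) in erythroid-like nuclei, and these intervals overlap. Slc7a11, which brings in the cystine they need, had another order. Its level was 1451 CPM (1186 to 1759) in neutrophil-like nuclei, 713 CPM (600 to 841) in the myogenic cluster led by Chodl and Pax7 and 409 CPM (347 to 478) in the Ptgr1-led cluster. In the Ccl8-led macrophages it was 14.4 CPM from 4 UMIs. The neutrophil-like nuclei had a median of 747.5 UMIs, and 36.0% of the 86 had a Slc7a11 UMI.

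Among the thioredoxin and peroxide members, Prdx1 was at 669 CPM (590 to 756) in the Ptgr1-led cluster 391 CPM (253 to 577) in the Hspa1a-led and 380 CPM (301 to 473) in the Mmp12-led cluster, against 112 CPM in the Ccl8-led cluster. Txnrd1 was at 310 CPM (257 to 371) in the Ptgr1-led cluster and at 270 CPM (205 to 348) in osteoclast-like nuclei, and these intervals overlap. Srxn1 had 32 UMIs in all kept nuclei and was at 0 in 7 of the 16 populations. Nqo1, often used as a readout of NRF2, had 13 UMIs, of which 1 lay in macrophage-like nuclei, and was at 0 in 10 populations. Ptgr1 had 44 of its 83 UMIs in the cluster it leads, at 115 CPM (83.2 to 154), and stood at 125 CPM (54.0 to 247) from 8 UMIs in the unnamed Hspa1a-led cluster. Fth1, the iron-storage member, was at 224 CPM (179 to 276) in the Ptgr1-led cluster and at 154 CPM (76.6 to 275) in neutrophil-like nuclei, again with overlapping intervals.

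The shape of these profiles differed between members. Over the 16 populations, Pearson's r of a member's log2(CPM + 10) with the mean standardized profile of the other 9 was 0.85 for Gclm, 0.82 for Prdx1, 0.77 for Ptgr1 and 0.76 for Hmox1. It was 0.21 for Slc7a11 and -0.27 for Nqo1, the latter from 13 UMIs. All populations come from 1 library and differ in depth, so these values describe it only. Among 6860 other genes with at least 100 UMIs, the 5 with the profile most like the mean of the members were Esd, Brpf1, Junos, Ascc1 and Creg1, with r of 0.85 to 0.80. Arg1 had r = 0.74 and rank 18. Its own level was highest in monocyte-like nuclei, at 2590 CPM, and was 1416 CPM in the Ptgr1-led cluster.

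Co-detection with Arg1 was read in the 233 macrophage-like nuclei. Of these, 71 (30.5%, 24.6 to 36.8%) had at least 1 Arg1 UMI and 162 had none, with median depths of 4316 and 3811.5 UMIs. As background, an Arg1 UMI was found in 2.94% of the 102 Matn3-led skeletal nuclei at a median of 7710 UMIs. The share was 6.67% in Pgr-led skeletal, 8.16% in mixed lymphoid and 9.38% in osteoclast-like nuclei. It was 0% in Chodl-led myogenic, 1.16% in neutrophil-like, 2.78% in endothelial-like and 5.05% in the other myogenic nuclei. Erythroid-like nuclei had 15.2% at a median of 3613 UMIs, but held more macrophage than erythroid marker RNA and cannot serve as background. The Dnase1l3-led macrophages, at 8.11%, lay within the range of the other populations named. After thinning, the share was 4.23% (0.880 to 11.9%) in the Dnase1l3-led macrophages, 0% in erythroid-like, 5.45% in Pgr-led and 0% in Matn3-led nuclei. Both groups differed in their clusters, since the Ptgr1-led cluster gave 45 of the 71 Arg1-positive and 45 of the 162 Arg1-negative nuclei. The 10 members summed to 810 UMIs in Arg1-positive and 952 in Arg1-negative nuclei, a ratio of the levels of 1.72 (1.56 to 1.89). For Hmox1 the ratio was 2.14 (1.82 to 2.51), from 315 and 298 UMIs.

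Of the 8 members with at least 10 UMIs over both groups, 6 had a ratio whose interval lay above 1, against 6.68% of 8394 genes. At least 2-fold higher were 3 of the 8, against 6.86%. The 8 ratios had a median of 1.76, beside 0.963 over all genes. The 6 were Ptgr1 at 2.83 (1.54 to 5.30), Hmox1, Gclm at 2.10 (1.51 to 2.93), Gclc at 1.97 (1.24 to 3.13), Fth1 at 1.55 (1.11 to 2.16) and Prdx1 at 1.51 (1.21 to 1.89). Txnrd1 at 1.14 (0.830 to 1.56) and Slc7a11 at 1.27 (0.939 to 1.696) had intervals that hold 1. Srxn1 had 1 and 8 UMIs and Nqo1 1 and 0. After thinning to 1000 UMIs, 40.8% (29.3 to 53.2%) of the Arg1-positive and 21.5% (15.4 to 28.8%) of the Arg1-negative nuclei had a Hmox1 UMI, and without thinning 59.2% and 34.0%. For any member the thinned shares were 57.7% (45.4 to 69.4%) and 47.5% (39.5 to 55.6%), whose intervals overlap.

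The ratio was smaller within clusters when UMIs were pooled. Within the Ptgr1-led cluster, 45 nuclei of each kind, the members' ratio was 1.18 (1.05 to 1.32), with Hmox1 at 1.496 (1.22 to 1.83), Gclm at 1.75 (1.17 to 2.66), Prdx1 at 0.882 and Slc7a11 at 0.813. The median nucleus there had 1821 CPM (interquartile range 472 to 5766) of member UMIs when Arg1-positive and 790 CPM (327 to 3404) when Arg1-negative, and 1 Arg1-negative nucleus held 123 of the 542 member UMIs of its group. In the Ccl8-led cluster the ratio was 0.785 (0.588 to 1.04), with Hmox1 at 0.962 (0.648 to 1.40). In the Dnase1l3-led cluster it was 0.848 (0.531 to 1.30) from 6 Arg1-positive nuclei. Without the Ptgr1-led cluster, a setting chosen after the values had been seen, the ratio was 0.884 (0.698 to 1.11), with Hmox1 at 1.36 (0.964 to 1.90), and no member had an interval above 1. The ratio was also below 1 in another 2 settings, at 0.987 (0.791 to 1.22) when members, pathway genes and Arg1 were kept in the clustering, with 7 of that cluster's 90 nuclei among 147 macrophage-like nuclei, and at 0.960 (0.716 to 1.27) under a mitochondrial limit of 0.5%, with 5 among 120. It was 1.99 (1.75 to 2.28) with at least 500 genes per nucleus, where 26 of the 90 were among 186.

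With UMIs pooled, other mononuclear phagocytes did not share 1 direction. In monocyte-like nuclei, where 50 of 72 were Arg1-positive, the members' ratio was 0.597 (0.456 to 0.789). Hmox1 was at 0.436 (0.283 to 0.677) and Slc7a11 at 0.153 (0.0661 to 0.335). However, 1 of the 22 Arg1-negative nuclei there held 28 of their 80 member UMIs. The median monocyte-like nucleus went the other way, with 519 CPM of member UMIs when Arg1-positive and 0 CPM when Arg1-negative. After thinning, 43.8% (29.5 to 58.8%) and 36.4% (17.2 to 59.3%) of them had any member UMI. In the Mmp12-led cluster the members' ratio was 2.65 (2.06 to 3.41), but 1 of the 10 Arg1-positive nuclei there held 115 of their 180 member UMIs. In that cluster the median nucleus had 441 CPM of member UMIs when Arg1-positive and 572 CPM when Arg1-negative.

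**Figure D2:**
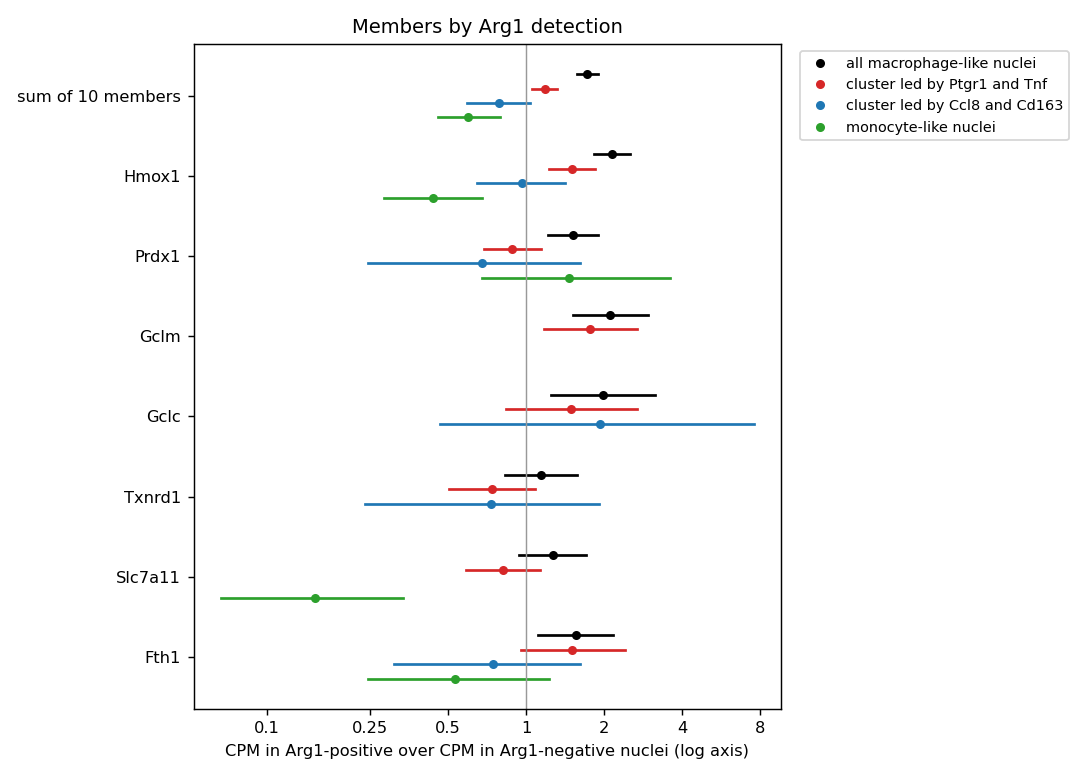
Ratio of the level (CPM) in Arg1-positive over Arg1-negative nuclei for the sum of the 10 members and 7 members, on a log axis, with exact 95% conditional binomial intervals. The 233 macrophage-like nuclei are in black, the Ptgr1-led cluster in red, the Ccl8-led cluster in blue and monocyte-like nuclei in green, and ratios with fewer than 3 UMIs on a side are not drawn. The sum lay at 1.72 in all macrophage-like nuclei, 1.18 in the Ptgr1-led cluster and 0.597 in monocyte-like nuclei.

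A few nuclei carried much of the members' RNA. Among the 233 macrophage-like nuclei, the 9 with the most UMIs of a gene held 86.5% of the Slc7a11 UMIs, 79.2% of the Ptgr1 UMIs and 57.8% of the Prdx1 UMIs. The values for Hmox1 and Fth1 were 34.4% and 29.6%. A single nucleus held 61 of the 200 Slc7a11 UMIs. The intervals above do not include this spread between nuclei. In the median nucleus the members stood at 1082 CPM (interquartile range 363 to 2791) in Arg1-positive and 503 CPM (223 to 1161) in Arg1-negative nuclei, and these ranges overlap.

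The members' level was not highest in the nuclei with the most Arg1 UMIs. The sum was 1443 CPM (1352 to 1537) in the 162 nuclei without Arg1, 2276 CPM (1961 to 2626) in 21 nuclei with 1 Arg1 UMI, 4786 CPM (4232 to 5392) in 15 nuclei with 2 to 4 and 1880 CPM (1689 to 2086) in 35 nuclei with 5 or more. Hmox1 had 452, 584, 1772 and 889 CPM in the same order. Slc7a11 had 186, 596, 443 and 16.0 CPM, lowest in the class with the most Arg1 UMIs. The nucleus with 61 of the 200 Slc7a11 UMIs lay in the class without Arg1, since the other classes held 49, 25 and 3. Among Arg1-positive nuclei, 1 held 91 of the 810 member UMIs, and its class was not examined. The orders of the sum and of Slc7a11 can rest on single nuclei, which was not tested. The classes also differed in depth, with medians of 3811.5, 3497, 3376 and 5161 UMIs.

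**Figure D3:**
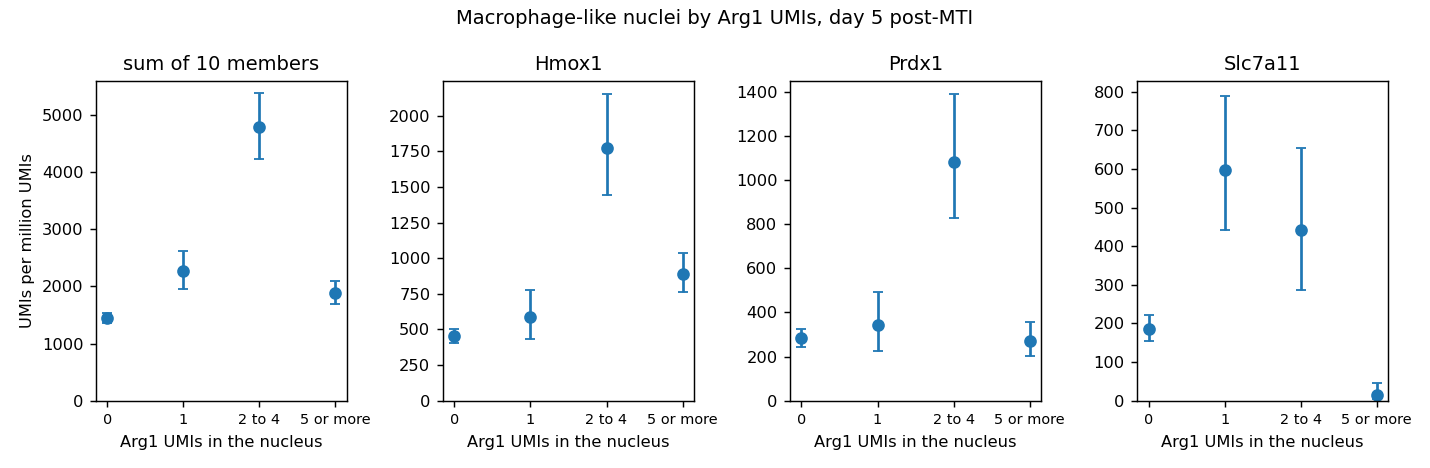
Levels (CPM, with exact 95% Poisson intervals) of the sum of the 10 members, Hmox1, Prdx1 and Slc7a11 in macrophage-like nuclei with 0, 1, 2 to 4 and 5 or more Arg1 UMIs (162, 21, 15 and 35 nuclei). The sum was highest, at 4786 CPM, in the nuclei with 2 to 4 Arg1 UMIs.

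Members were also seen together with Hmox1. Among 229 macrophage-like nuclei thinned to 1000 UMIs, 63 had a Hmox1 UMI. Prdx1 was detected in 36.5% (24.7 to 49.6%) of these and in 7.83% (4.24 to 13.0%) of the 166 others. For Gclm the shares were 25.4% (15.3 to 37.9%) and 4.22% (1.71 to 8.50%), and for Txnrd1 33.3% (22.0 to 46.3%) and 12.0% (7.52 to 18.0%). The intervals also did not overlap for Ptgr1 (14.3% and 1.20%), Slc7a11 (12.7% and 1.20%) and Fth1 (23.8% and 7.23%). Those of Gclc (12.7% and 3.01%) and Srxn1 (1.59% and 0.602%) did, and Nqo1 had no UMI in either. Of the 7 of these 9 members seen in at least 10 thinned nuclei, 6 had the higher share with intervals apart, beside 0.518% of 4053 genes. The members were chosen with earlier results of these counts known, so these shares are a description and were not tested. The Ptgr1-led cluster gave 39 of the 63 Hmox1-positive and 50 of the 166 Hmox1-negative nuclei, and its part in these shares was not tested.

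Of the 86 other genes fixed in 6 lists around the pathway, 57 had at least 10 UMIs in macrophage-like nuclei. The interval of the Arg1-positive over Arg1-negative ratio lay above 1 for 10 of them and below 1 for 4, and their median ratio was 1.04. Of all 8394 genes, 6.68% had an interval above 1 and 8.01% an interval below 1. The Ptgr1-led cluster gave 45 of the 71 Arg1-positive and 45 of the 162 Arg1-negative nuclei. No ratio within a cluster is given for these genes, so the part of the clusters in their ratios was not tested. Above 1 lay 4 of the 12 measured NADPH and quinone genes, 3 of the 7 glutathione genes and 1 of the 10 thioredoxin and peroxide genes. So did 1 of the 11 heme genes and 1 of the 6 regulators. These were Lrp1 at 1.60 (1.38 to 1.85), from 334 and 422 UMIs, and Sqstm1 at 1.55 (1.06 to 2.25). Prdx6, a peroxiredoxin that also repairs lipids, had 45 and 15 UMIs and a ratio of 6.07 (3.32 to 11.7), and 57 of its 60 UMIs lay in the Ptgr1-led cluster. Gsr, glutathione reductase, was at 2.63 (1.64 to 4.28), Esd, esterase D, at 2.38 (1.53 to 3.72), Mgst1, a microsomal glutathione transferase, at 6.74 (1.74 to 38.1) and Trim16 at 4.72 (1.08 to 28.3), the last 2 from 13 and 10 UMIs. None of the 11 measured iron genes lay above 1 and 3 lay below it. These were Slc11a2, a ferrous iron transporter, at 0.349 (0.159 to 0.688), Trf, transferrin, at 0.202 (0.0229 to 0.832) and Slc40a1 at 0.581 (0.349 to 0.934). Spic, a regulator of iron-recycling macrophages, was at 0.253 (0.0778 to 0.640). Of the regulators, named here after their values had been seen, Nfe2l2 was at 263 CPM (214 to 319) in the Ptgr1-led cluster and 321 CPM (262 to 389) in the Dnase1l3-led cluster, and Bach1 at 169 CPM (131 to 216) and 216 CPM (168 to 273). For both genes these intervals overlap.

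At day 1 post-fracture the members were not above the barcodes under 200 genes, which were taken as RNA free in the droplets. Whether shallow nuclei are among those barcodes was not tested. They summed to 533 CPM (493 to 576) in the 2405 nuclei and 618 CPM in those barcodes, a ratio of 0.862 (0.792 to 0.937), with no member above 1 by its interval. Of these nuclei 1259 were myogenic by their share of muscle-gene UMIs, a kind that the paper removed and that was kept here. Macrophage markers stood at 300 CPM in the nuclei and 465 CPM in those barcodes. Among 22216 genes, 10.5% had an interval above 1 and 6.73% a ratio of at least 2, and no member was in either set. For 10 members, 0 is close to these shares, so this count is not a result about the members. The median ratio was 0.790 for the members and 1.06 for all genes. Intervals lay below 1 for Hmox1 at 0.703 (0.496 to 0.975), from 41 UMIs in nuclei, and Fth1 at 0.514 (0.387 to 0.671), while 6.18% of all genes lay below. Slc7a11 at 0.999 (0.869 to 1.14), Txnrd1 at 1.01 (0.838 to 1.22) and Gclc at 0.996 (0.722 to 1.35) were at the level of those barcodes. Ptgr1, Nqo1 and Srxn1 had 5, 9 and 11 UMIs in all nuclei. Their intervals hold 1, and a smaller difference could be missed at this depth. Without the myogenic nuclei the ratio of the sum was 0.938 (0.834 to 1.05), an interval that holds 1, with 1 member above 1.

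**Figure D4:**
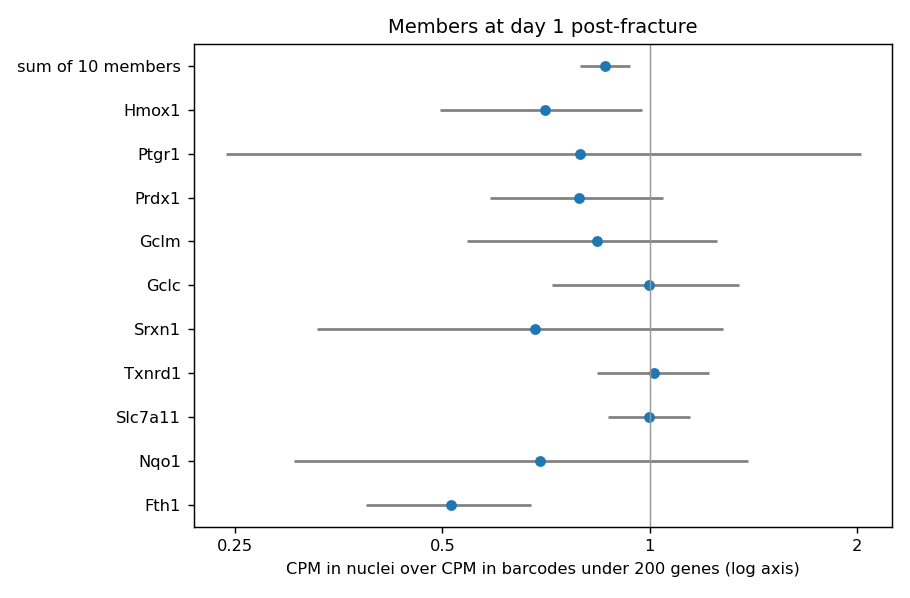
Level (CPM) in the 2405 nuclei, 1259 of them myogenic, over the level in barcodes under 200 genes at day 1 post-fracture, on a log axis, with exact 95% conditional binomial intervals. No member's interval lay above 1, beside 10.5% of all genes, and those of Hmox1 and Fth1 lay below 1. The Hmox1 interval held 1 in some other settings.

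By gene number, Hmox1 was at 46.8 CPM in nuclei with 200 to under 300 genes and 33.2 CPM with 300 to under 500. It was at 8.11 CPM with 500 or more, from 2 UMIs, and a trend over these classes was not tested. The barcodes under 200 genes held 48.5 CPM, and the barcodes that the filters removed held 62.0 CPM (49.4 to 76.9). With a mitochondrial limit of 5% the Hmox1 ratio was 1.00 (0.807 to 1.24), and the call below 1 was lost. The call was also lost with free RNA taken from barcodes under 100 genes, at 0.734 (0.499 to 1.06). Without myogenic nuclei it was lost as well, at 0.717 (0.426 to 1.14). In the 536 immune-like nuclei Hmox1 was at 63.7 CPM (32.9 to 111). Its ratio to the barcodes under 200 genes was 1.31 (0.673 to 2.33), and that of the members 1.07 (0.891 to 1.28). The immune markers of the clusters they came from had pooled folds of 1.714 and 1.835, and all but 1 of their sub-clusters stayed unnamed. The immune name of most of these nuclei is therefore uncertain. The named sub-cluster, 78 macrophage-like nuclei led by Cdc42bpb, Ctsb and Msr1, had 5 Hmox1 UMIs and a ratio of 3.84 (1.24 to 9.05). Arg1 in the same 78 nuclei had 10 UMIs and a ratio of 1.51 (0.722 to 2.78). Among the pathway genes at day 1, Txnrd2, the mitochondrial thioredoxin reductase, was at 2.03 (1.24 to 3.21) and Akr1b8, an aldo-keto reductase, at 2.37 (1.01 to 5.15). Prdx6 was at 0.358 (0.187 to 0.625), Ftl1, the ferritin light chain, at 0.531 (0.368 to 0.745) and Spic at 0.242 (0.0647 to 0.642). Also below 1 were Blvrb, biliverdin reductase B, at 0.453 (0.177 to 0.973), Lgals3, galectin 3, at 0.523 (0.382 to 0.701) and Pgd, an NADPH-making dehydrogenase, at 0.541 (0.353 to 0.798). Of 83 measured pathway genes, 8 lay above 1 and 10 below, beside 10.5% and 6.18% of all genes.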

How the data were processed

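The 2 10x snRNAseq libraries, 1 per condition, were analysed. Whole-number UMI counts are what the authors deposited for every gene and barcode, made with Cell Ranger 7.0.1 per the file headers on the mm10 build, introns included. The labels name a human reference, but all identifiers are mouse. Positions come from the GENCODE M21 annotation. Members and lists were chosen with earlier results of these data known. Per the methods, nuclei with 200 to 5000 genes were kept, with under 0.5% mitochondrial and 2.5% ribosomal UMIs at day 1. After MTI the limits were 5% and 2%. Myogenic nuclei, which the paper removed, were kept in both libraries. Seurat 5.3.0 in R 4.3.3 clustered 2000 variable genes, with 30 components and resolution 1 after MTI, 20 and 1.5 for its immune subset, and 20 and 1.7 at day 1. A name needed 3 markers that each had 3 UMIs or more and reached a fold of 1.5, a pooled fold of 1.5 and a marker among the 100 leading genes. Clusters of low depth needed one among the first 10. The myogenic name had another rule, with no fold or leading-gene minimum. There, the share of UMIs from 11 muscle genes had to exceed that of the whole library. The name went only to clusters otherwise unnamed or named skeletal, adipocyte or pericyte. The symbols Cd8 and Ntn1 in the study's lists were read as Cd84 and Ntng1. Named were the members, up to 8 pathway genes per comparison with the ratio furthest from 1 among intervals without 1, the 5 genes most like the members, and cluster leaders. Lrp1, Sqstm1, Slc40a1, Nfe2l2 and Bach1 were named outside this rule. Scrublet (scanpy 1.11.5) marked 3 of 5523 barcodes at day 1 (0.0543%) and 0 of 1398 after MTI, too few to have worked, so doublets were kept. CPM, ratios and intervals were computed with scipy 1.17.1. The ratio intervals were also run on simulated counts drawn without spread between nuclei, which cannot show how they hold in these data. With 1 library per condition no p-value was given. Alternatives varied the clustering genes, resolution, gene and mitochondrial limits, nucleus assignment, denominator, Arg1 threshold, depth and free-RNA barcodes.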

Additional observations from a re-analysis of the deposited data

How the results depend on the processing

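The summed member level in macrophage-like nuclei (1786 CPM) was 790 CPM with members, pathway genes and Arg1 kept in the clustering, 1956 CPM at doubled resolutions, 1136 CPM with at least 500 genes per nucleus, 707 CPM under a mitochondrial limit of 0.5%, 1388 CPM with each nucleus assigned by its own marker score, 1598 CPM with monocyte-like and Mmp12-led nuclei added and 835 CPM without the Ptgr1-led cluster. The Arg1 ratio of the sum was, in the same order, 0.987, 1.90, 1.99, 0.960, 1.43, 1.44 and 0.884, and the Hmox1 ratio 1.38, 2.41, 2.58, 1.46, 1.53, 1.72 and 1.36. Members with an interval above 1 numbered 1 with the genes kept in the clustering, 0 at 0.5% and 0 without the Ptgr1-led cluster. In nuclei under 3000 UMIs the ratios were 2.53 and 3.13 with 3 members, and after thinning both to 1000 UMIs 1.96 and 2.97 with 2. These settings change which nuclei or how many UMIs are counted; the cause was not tested further. At day 1 the sum ratio was 0.945 and the Hmox1 ratio 1.00 under a 5% mitochondrial limit, 0.760 and 0.452 in nuclei of at least 500 UMIs, and the sum 0.938, with 1 member above 1, without myogenic nuclei. Without the shared barcodes no result moved beyond its interval. The difference in thinned shares with any member UMI, 10.3 percentage points (-3.67 to 23.5), was 17.3 (4.04 to 30.4) at 500 UMIs and 14.1 (0.285 to 26.1) at 2000. The share of all genes with an Arg1 interval above 1 was 3.72% with no UMI minimum and 8.73% at 30. Doublet removal gave no separate value, since none was marked after MTI. The settings that added phagocytes, left out the Ptgr1-led cluster or left out shared barcodes were chosen after seeing the data. No paired analysis was possible because each condition had 1 library and no test was made. Depth limits Srxn1, Nqo1 and, at day 1, Ptgr1.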
